A study of Mus musculus with 6 samples.

Results

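Homeobox, forkhead and Zic transcription factors were examined in 6 mouse gliomas measured on Illumina bead arrays. The set held every gene whose array symbol begins with the name of a Hox, Lhx, Dlx, Nkx, Pax, sine oculis, Emx, Otx, Irx, Msx, Zic, Gsx, Pou or forkhead gene family, chosen by symbol and without use of the measured values. It came to 156 genes with 251 probes, among 19057 genes on the array with a single symbol. Among them are 5 noncoding transcripts named after a neighbouring factor. One match, Pou2af1, is a coactivator and not a POU factor. It was detected on 0 arrays.

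The RCAS/tva system served to induce the gliomas. In it, an avian virus infects cells that carry its receptor, tva, from a transgene. The mice were adult Ntva-Ink4a/Arf+/- and Ntva-Ink4a/Arf-/- animals on FVB/N, C57BL6, BALB/C and 129 backgrounds. In Ntva mice the receptor is driven by the nestin promoter, which is active in neural progenitor cells. All tumours were started in the right frontal cortex with DF1 chicken fibroblasts making PDGFb virus, mixed with DF1 cells making HoxA5 virus (experimental group, n = 2) or mCherry virus (control group, n = 4). The animals had no other treatment and were followed until they fell ill. Which Ink4a/Arf genotype a given tumour arose in is not stated, nor whether every tumour is from its own animal, and the p-values therefore describe the spread among these samples alone. RNA was taken from whole tumour tissue, in which fewer cells of a type and less RNA per cell cannot be told apart.

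Homeodomain proteins bind short AT-rich DNA sites and give embryonic tissues their position. Hox genes lie in clusters and pattern the hindbrain, spinal cord and trunk, whereas Emx, Otx, Dlx, Gsx, Lhx and Nkx genes divide the forebrain into pallium, subpallium and hypothalamus, and Zic zinc finger factors mark dorsal midline tissue and the cerebellum. Forkhead factors bind DNA through a winged-helix domain. They include regulators of cell division (Foxm1), of cilia (Foxj1), of striatal and cortical neurons (Foxp1, Foxp2) and of meninges and vessel walls (Foxc1, Foxf2).

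The arrays had median intensities of 136.1 to 166.8 and detected 19950 to 21904 of 45281 probes each, a probe being detected where its detection p-value was under 0.05. Levels below are background-corrected, quantile-normalized log2 intensities, and differences are HoxA5 minus mCherry on that scale. Levels of different genes come from different probes and are not compared. All tested markers of glioma progenitors, astrocytes, neurons and oligodendrocytes were detected on all 6 arrays. The neuron list mean was 8.84 to 10.18 on the HoxA5 arrays and 11.52 to 13.18 on the mCherry arrays. In that list, as in several others below, the mCherry 4 array lay nearest to the HoxA5 arrays and mCherry 3 farthest.

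Most of these factors did not pass the detection filter. A gene was tested where at least 1 of its probes was detected on at least 2 of the 6 arrays, which 59 of 156 genes met. By the probe detected most often, another 22 genes were detected on 1 array and 75 on 0 arrays. Of the 22, Foxo6 and Lhx3 were detected on 2 arrays by different probes. Of the 59, 28 were detected on all 6 arrays by the probe tested. Over all probes of a gene, 51 were detected on at least 1 array of each group, 8 on mCherry arrays alone and 0 on HoxA5 arrays alone. The 8 were Dlx6, Emx1, Foxp2, Irx6, Lhx5, Lhx8, Nkx6-1 and Otx2. Of all 12242 genes tested, 5.73% were detected on mCherry arrays alone and 0.457% on HoxA5 arrays alone. The filter itself favours the first kind, since a gene needs 2 detecting arrays and there are 4 mCherry but 2 HoxA5 arrays, so the split was not tested. Counted over all probes, 50 and 42 of the 156 genes were detected in HoxA5 tumours, and 48, 54, 57 and 40 in mCherry tumours 1 to 4. The groups overlapped in this count.

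The number detected varied between lists of factors grouped by the region or tissue in which they are known to act. The 3 factors of the oligodendrocyte lineage (Nkx2-2, Nkx6-1 and Nkx6-2) and both choroid plexus and ependymal factors (Otx2 and Foxj1) passed the filter. So did 6 of 8 factors of the pallium, 7 of 11 of the subpallium, striatum and interneurons, 5 of 6 Iroquois genes, 5 of 7 dorsal midline and cerebellar factors, 6 of 9 factors of meninges and vessel walls and 11 of 15 broadly expressed factors. The diencephalon, hypothalamus and pituitary had 2 of 9, the midbrain, isthmus and sensory organs 2 of 9, and Hox genes 2 of 38. Symbols placed in no other list, which are not of 1 region or tissue, had 7 of 34. All 9 Pax genes were detected on 0 arrays, among them Pax6, a factor of cortical progenitors and astrocytes. Over all probes and arrays, 24.4% of the probe measurements of the 156 genes were detected, against 45.9% of those of every probe on the array.

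**Figure D1:**
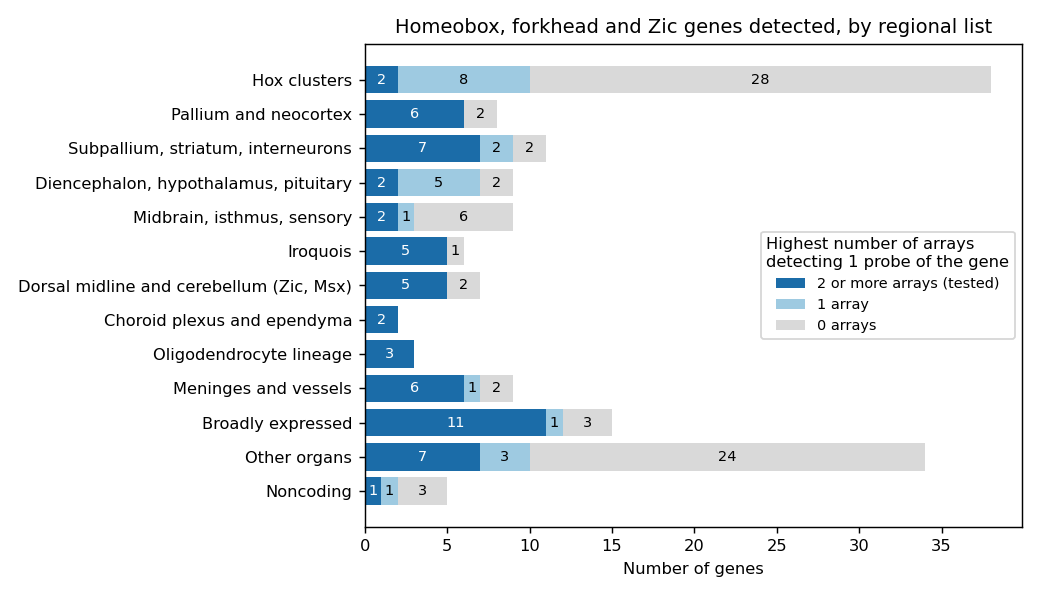
Numbers of homeobox, forkhead and Zic genes in each regional list (bars, counts of genes from 0), split by the highest number of arrays that detected 1 probe of the gene: 2 or more arrays (tested), 1 array, or 0 arrays. Hox genes have 2 tested of 38, and the oligodendrocyte lineage 3 of 3. The bar labelled Other organs holds every symbol placed in no other list.

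Most Hox genes were not detected in either group. The array has 1 probe for Hoxa5, the gene delivered by the virus, and it was detected on 0 arrays, with detection p-values of 0.0652 to 0.771. Its log2 levels were 4.54 and 4.49 in HoxA5 tumours and 4.50, 4.72, 4.45 and 5.12 in mCherry tumours, so the HoxA5 values lay within the mCherry range. As all 6 are background values, they were not compared further. The stretch of transcript read by this probe and the insert of the virus are unknown here, and so the labels are not checked by it.

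Over all 57 Hox probes and 6 arrays, 17 of 342 measurements were detected, or 4.97%. The share was 4.39% on HoxA5 arrays (5 of 114) and 5.26% on mCherry arrays (12 of 228). Where detection p-values are ranks among negative control probes, a threshold of 0.05 passes a like share of probes without a target. Of the 38 genes, 28 were detected on 0 arrays. Another 8 were detected on 1 array each, Hoxd1 on HoxA5 1, Hoxd11 on HoxA5 2, Hoxc8 on mCherry 1, Hoxa4 on mCherry 2, Hoxc4, Hoxc12 and Hoxc13 on mCherry 3 and Hoxb5 on mCherry 4. No Hox gene outside these had a detected probe except the 2 that were tested.

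Those 2 were posterior genes. Hoxa13, a factor of limb and hindgut, was detected on all 6 arrays by 1 of its 3 probes, at 6.09 and 6.60 in HoxA5 tumours and 6.43, 6.22, 5.16 and 6.31 in mCherry tumours (difference 0.31, adjusted p = 0.676). Hoxc10, which patterns the lumbar spinal cord, was detected on 3 arrays by 1 of its 2 probes, at 4.80 and 5.32 against 5.04, 5.13, 5.35 and 5.07 (difference -0.089, adjusted p = 0.865). The groups overlapped for both.

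Of the 59 tested genes, 3 passed the threshold of an adjusted p under 0.05 in limma (5.08%), a share near the 5.85% of all 12242 genes tested. Nkx6-2 and Otx2 fell in HoxA5 tumours and Foxm1 rose, against 4.64% and 1.21% of all genes called lower and higher. At an unadjusted p under 0.05 there were 15 of 59 genes (25.4%), against 24.6% of all genes. In 8 genes both HoxA5 arrays lay above all mCherry arrays (18.3% of all genes) and in 11 below (17.2% of all genes), together 32.2% against 35.5% of all genes. The median difference was 0.15, with 34 genes positive and 25 negative, against a median of 0.072 over all genes. These shares lie near those of all genes, so they are no result about the factors as a set. With scaling to a common median in place of quantiles, 265 genes were called higher and 437 lower, against 148 and 568.

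The number of calls depended on single arrays. Without HoxA5 1, HoxA5 2 or mCherry 1 in turn, limma called 0 of the factors, with 8, 10 and 11 at an unadjusted p under 0.05. In these fits 0.986%, 0.0166% and 1.42% of all genes were called, so few or no calls among the factors lie near that background. Without mCherry 2 the one call was Nkx6-2 (2.07% of all genes called), and without mCherry 3 the calls were Nkx6-2 and Otx2 (4.38% of all genes). Without mCherry 4 there were 14 calls, the 3 above with Dlx1, Dlx6, Emx1, Foxp1, Foxq1, Foxs1, Gsx1, Lhx8, Otx1, Pou3f1 and Zic2, beside 19.9% of all genes. Where 1 HoxA5 array is left, the fit assumes that it varies as the mCherry arrays do.

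**Figure D2:**
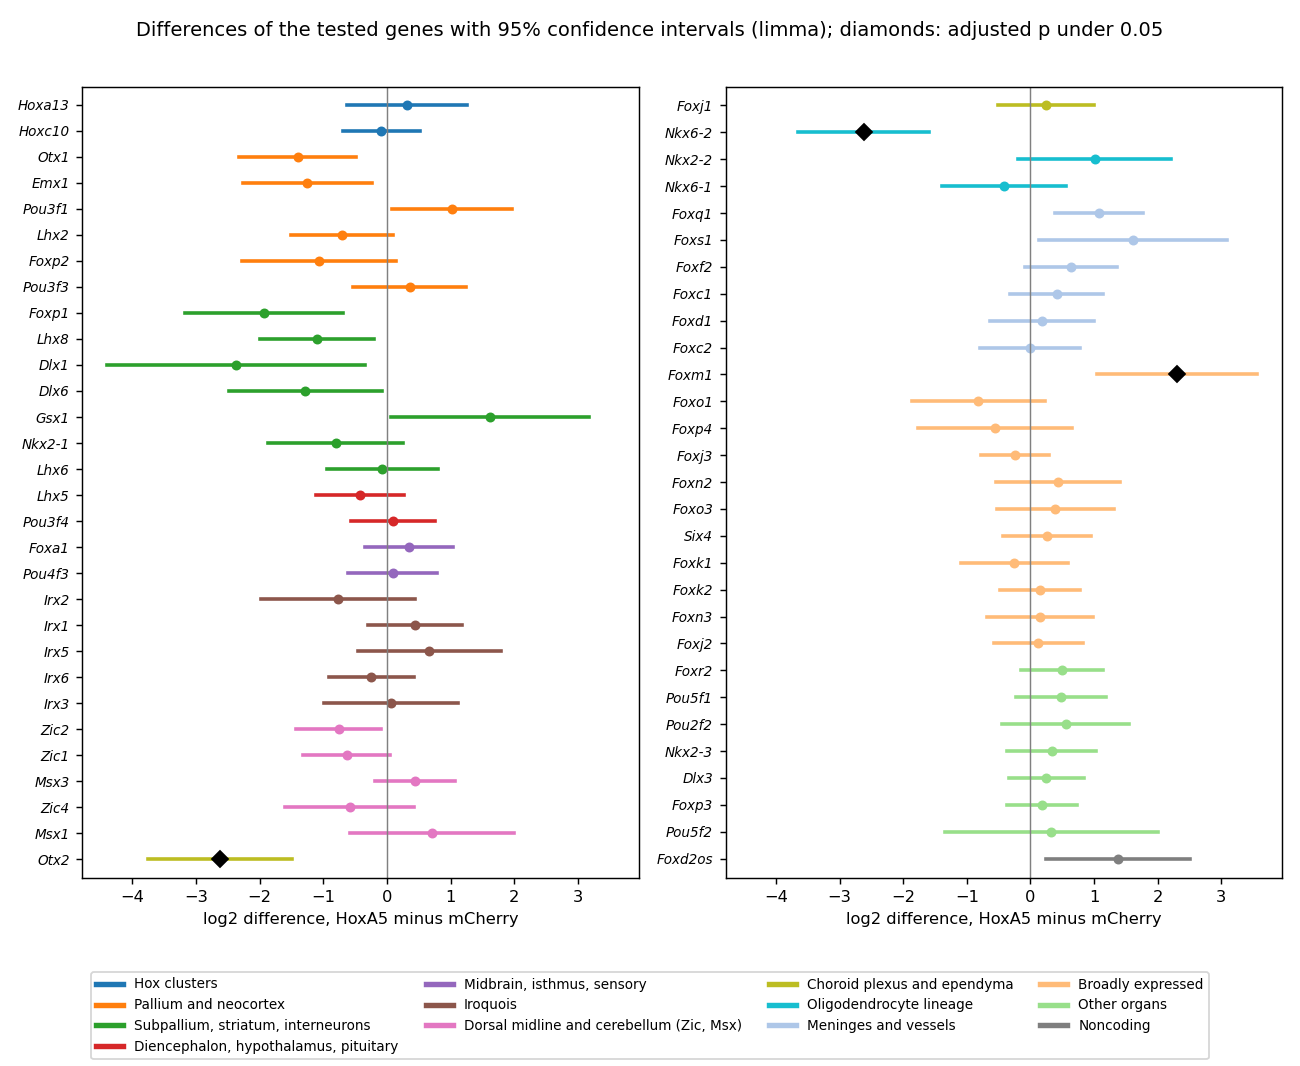
Log2 differences (HoxA5 minus mCherry, points) with 95% confidence intervals (lines) for the tested homeobox, forkhead and Zic genes, grouped by regional list. The called genes are Nkx6-2 (-2.62), Otx2 (-2.63) and Foxm1 (2.31). Diamonds mark these 3, colours mark the lists, and 15 of the 59 genes have an unadjusted p under 0.05.

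Nkx6-2 and Otx2, the pair of genes that fell, are shown with their promoters, 250 bases before to 50 bases after the transcript start on the gene's strand, from RefSeq on GRCm38.p6. Capitals mark TAATTA, a homeodomain core, and CCAAT, the box bound by NF-Y, searched on both strands. Nkx6-2 starts in chr7:139582748-139583047 (minus strand) and Otx2 in chr14:48667595-48667894 (minus strand), the latter window being that of the outermost of 4 listed starts.
Nkx6-2: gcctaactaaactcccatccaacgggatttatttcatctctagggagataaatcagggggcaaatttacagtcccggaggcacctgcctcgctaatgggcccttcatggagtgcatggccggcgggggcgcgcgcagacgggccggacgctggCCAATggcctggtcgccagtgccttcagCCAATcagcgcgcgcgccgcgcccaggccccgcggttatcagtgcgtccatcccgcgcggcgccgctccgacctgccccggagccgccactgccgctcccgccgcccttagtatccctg
Otx2: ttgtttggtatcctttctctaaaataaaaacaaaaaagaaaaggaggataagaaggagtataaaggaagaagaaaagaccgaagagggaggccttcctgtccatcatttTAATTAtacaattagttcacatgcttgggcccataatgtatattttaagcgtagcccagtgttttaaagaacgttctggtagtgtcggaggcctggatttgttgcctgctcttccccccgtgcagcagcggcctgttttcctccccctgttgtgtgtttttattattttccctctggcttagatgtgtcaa
The Nkx6-2 window held 2 CCAAT boxes and 0 TAATTA, and the Otx2 window 1 TAATTA and 0 CCAAT. Among 32851 RefSeq windows of the same length, 37.4% held CCAAT and 5.29% TAATTA. These are matches of letters and were not tested for binding.

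Nkx6-2, a homeodomain factor of maturing oligodendrocytes, stood at 5.51 and 5.28 in HoxA5 tumours and at 8.18, 8.29, 8.57 and 7.03 in mCherry tumours 1 to 4. The groups did not overlap, and mCherry 4 was the lowest control. It fell by 2.62 (SE 0.456, 95% confidence interval -3.65 to -1.60, adjusted p = 0.0144). Its mean was 5.40 ± 0.162 (SD, n = 2) in HoxA5 and 8.02 ± 0.678 (SD, n = 4) in mCherry tumours. Its other probe was also lower, and undetected, on both HoxA5 arrays (4.68 and 4.73) than on the mCherry arrays (6.80, 7.47, 7.20 and 5.76). The adjusted p was 0.0942 without HoxA5 1, 0.169 without HoxA5 2 and 0.0556 without mCherry 1, and the difference was -1.24 without background correction.

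The other oligodendrocyte lineage factors did not pass the test. Nkx2-2, which acts in oligodendrocyte progenitors, was at 10.56 and 10.14 in HoxA5 tumours and at 9.15, 9.89, 8.05 and 10.27 in mCherry tumours (difference 1.01, SE 0.539, adjusted p = 0.278). Here the mCherry 3 array was lowest and mCherry 4 lay between the HoxA5 values. Nkx6-1, a factor of ventral neural progenitors, was detected on mCherry 2 and mCherry 4 alone (difference -0.42, adjusted p = 0.584). Beside them, 6 of 7 tested oligodendrocyte markers were called lower, against 4.64% of all genes, with list means of 8.29 to 9.14 against 10.44 to 11.48. Of the glioma progenitor markers, 0 of 5 were called, with list means of 9.83 to 10.20 against 7.63 to 9.67. Their part in the values of Nkx6-2 and Nkx2-2 was not tested.

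Otx2, a factor of forebrain and midbrain patterning that the choroid plexus keeps in the adult, was not above background on either HoxA5 array (4.60 and 4.59) and was detected on all mCherry arrays (7.41, 7.04, 8.22 and 6.22). It fell by 2.63 (SE 0.502, 95% confidence interval -3.75 to -1.50, adjusted p = 0.0206). Its mean was 4.59 ± 0.0034 (SD, n = 2) in HoxA5 and 7.22 ± 0.832 (SD, n = 4) in mCherry tumours. The HoxA5 values are background, so their SD does not measure the spread of Otx2 there. The SE and the interval take them as measured levels. As the HoxA5 arrays give no more than a bound, it was at least 4.19-fold lower there, set against the lowest detected signal of each array. Otx2 has 1 probe. The call was lost without background correction (difference -1.01, adjusted p = 0.0585) and in the authors' values (-1.05, adjusted p = 0.0576), and without HoxA5 1, HoxA5 2, mCherry 1 or mCherry 2 (adjusted p from 0.0544 to 0.177).

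Most choroid plexus markers moved with Otx2. Of 5 tested, 3 were called lower (Ttr, Clic6 and Kl), beside 4.64% of all genes. Kl passed the detection filter through mCherry arrays alone. Folr1 was lower without overlap and was not called (limma adjusted p = 0.0971). The list mean was 5.93 to 6.12 on HoxA5 arrays against 8.14 to 10.65 on mCherry arrays. Among the mCherry arrays it was highest on mCherry 3 and lowest on mCherry 4, as for Otx2. Folr1 and Kl were not above background on either HoxA5 array. Aqp1, a water channel also made outside the choroid plexus, went the other way without passing the test. It was at 10.02 and 7.46 against 6.84, 7.02, 10.10 and 6.67, with overlap (difference 1.08, adjusted p = 0.529). The part of choroid plexus tissue in the Otx2 difference was not tested. Foxj1, the regulator of motile cilia in ependyma and choroid plexus, was at 5.39 and 5.94 against 5.83, 5.17, 5.04 and 5.65. Its groups overlapped (difference 0.24, 95% confidence interval -0.51 to 1.00, adjusted p = 0.685).

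Foxm1, the forkhead factor that drives genes of mitosis, was higher in HoxA5 tumours. It was at 9.06 and 8.84 in HoxA5 tumours and at 6.24, 6.91, 5.60 and 7.83 in mCherry tumours 1 to 4, with no overlap and mCherry 4 the highest control. It rose by 2.31 (SE 0.559, 95% confidence interval 1.05 to 3.56, adjusted p = 0.0445), or 4.95-fold. Its mean was 8.95 ± 0.156 (SD, n = 2) in HoxA5 and 6.64 ± 0.954 (SD, n = 4) in mCherry tumours. Its other probe was also higher (8.96 and 8.75 against 6.24, 6.47, 5.59 and 7.54). Of 10 tested mitosis markers 7 were called higher, beside 1.21% of all genes, and all 10 differences were positive. Among the 7, Ccna2, Ube2c and Ttk passed the detection filter through HoxA5 arrays alone, so the count is no support for a difference. The list means were 8.49 to 8.72 against 5.48 to 7.49, and the part of these markers in the Foxm1 difference was not tested. The call was lost without the detection filter (adjusted p = 0.0623), without the intensity trend (0.0522) and without any one array other than mCherry 4 (0.0509 to 0.251), and the difference was 1.42 without background correction.

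None of the other 10 tested members of the broadly expressed list passed the test, and their differences ran from -0.82 for Foxo1 to 0.44 for Foxn2. Foxo1, which acts downstream of insulin and growth factor signalling, was at 6.57 and 7.53 against 7.72, 8.51, 8.13 and 7.11, with overlap (adjusted p = 0.306). Foxp4 differed by -0.56 (adjusted p = 0.556), and its detected probes moved in opposite directions. Foxj3 lay lower on both HoxA5 arrays (10.22 and 9.94) than on the mCherry arrays (10.24, 10.24, 10.55 and 10.26), by 0.24 on average (adjusted p = 0.561). Foxk1, Foxk2, Foxn3, Foxj2, Foxo3 and Six4 had overlapping groups.

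No pallial factor passed the test, and 3 of 6 had an unadjusted p under 0.05, beside 24.6% of all genes. Emx1, among the 3, passed the detection filter through mCherry arrays alone. Otx1, a factor of cortical deep-layer neurons and progenitors, was at 6.80 and 6.66 in HoxA5 tumours and 8.20, 8.42, 8.58 and 7.32 in mCherry tumours, without overlap (difference -1.40, SE 0.41, adjusted p = 0.0748). Emx1, which marks the dorsal pallium, was not above background on the HoxA5 arrays (4.42 and 4.48) and was at 5.83, 6.74, 5.26 and 4.97 on mCherry arrays, detected on 3 of them. Its mCherry mean was 1.46-fold above the lowest detected signal of the HoxA5 arrays, and the difference did not pass (limma adjusted p = 0.130). Pou3f1, a POU factor of cortical neurons and of myelinating Schwann cells, differed the other way. It was at 12.32 and 11.92 against 11.48, 11.03, 10.08 and 11.79, without overlap (difference 1.02, adjusted p = 0.171).

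The other 3 pallial factors also did not pass. Lhx2, a selector of cortical identity, was at 5.06 and 5.85 against 6.40, 6.46, 5.80 and 6.01 (difference -0.71, adjusted p = 0.248), and 1 HoxA5 array lay within the mCherry range. Foxp2, a factor of deep-layer cortical and of striatal neurons, was detected on mCherry 1 and mCherry 3 (6.67 and 6.59) and in neither HoxA5 tumour (4.70 and 4.74). Its level was lower by at least 1.55-fold (limma adjusted p = 0.254). Pou3f3 differed by 0.35 (adjusted p = 0.612). Emx2 and Pax6 were detected on 0 arrays. The median over the 6 tested was -0.89, over all 8 without the detection filter -0.41, and without background correction -0.29.

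Factors of the subpallium, striatum and interneurons had 5 of 7 tested genes at an unadjusted p under 0.05 and 0 called, beside 24.6% and 5.85% of all genes. Of these 5, Dlx6 and Lhx8 passed the detection filter through mCherry arrays alone, so the count is no support for a difference. Foxp1, a factor of striatal projection neurons, was at 7.23 and 5.83 in HoxA5 tumours and at 8.12, 9.16, 9.03 and 7.56 in mCherry tumours, without overlap (difference -1.94, SE 0.552, adjusted p = 0.0699). Dlx1, which directs interneurons of the ventral forebrain, was at 7.01 and 4.83 against 8.20, 8.13, 10.24 and 6.58. HoxA5 1 lay above mCherry 4, so the groups overlapped (difference -2.37, SE 0.902, adjusted p = 0.147).

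Dlx6 and Lhx8 were not detected on either HoxA5 array. Dlx6, expressed in the same interneuron lineage, was at 4.94 and 5.03 against 6.65, 5.88, 7.36 and 5.19. Its mCherry mean was 2.16-fold above the lowest detected signal of the HoxA5 arrays, and the difference did not pass (limma adjusted p = 0.178). Lhx8, a factor of cholinergic neurons, was at 4.71 and 4.88 against 5.82, 5.99, 6.62 and 5.13. Its mCherry mean was 1.67-fold above that signal, and the difference did not pass (limma adjusted p = 0.132). For both, mCherry 3 was highest and mCherry 4 lowest and not detected. Nkx2-1, the selector of the medial ganglionic eminence, differed by -0.81 (adjusted p = 0.325) and Lhx6, its target in migrating interneurons, by -0.074 (adjusted p = 0.928), both with overlap.

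Gsx1 ran against the others of this list. It is a factor of ventral progenitors, and was at 9.39 and 10.00 in HoxA5 tumours and at 8.79, 7.88, 6.35 and 9.28 in mCherry tumours, without overlap (difference 1.62, SE 0.695, adjusted p = 0.188). Gsx2 and Dlx5 were detected on 0 arrays. The list's median was -1.10 over the 7 tested genes -0.51 over all of its genes without the filter, and -0.33 without background correction.

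Most tested markers of neurons were lower in HoxA5 tumours, whereas none of the subpallial factors was called. Of 7 tested neuron markers 6 were called lower, as were 6 of 7 interneuron markers, beside 4.64% of all genes. Slc32a1 is in both lists and was called lower, so the counts are not separate. The interneuron list means were 7.68 to 8.94 on HoxA5 arrays against 10.29 to 12.16 on mCherry arrays. Of 6 striatal markers 1 was called lower (Ppp1r1b), and all 6 differences were negative (median -2.04). The striatal list means were 7.00 to 7.73 against 7.91 to 10.50. The highest interneuron and striatal means were on mCherry 3 and the lowest among the controls on mCherry 4. Dlx1, Dlx6 and Lhx8 had the same highest and lowest controls, and other factors of their list did not. Foxp1 was highest on mCherry 2 (9.16). Lhx6 was highest on mCherry 2 (5.66) and lowest on mCherry 1 (4.67), and Nkx2-1 was lowest on mCherry 1 (5.38). Gsx1 and Pou3f1 were lowest on mCherry 3, as was the glioma progenitor list. The part of these cell types in the values of the factors was not tested.

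**Figure D3:**
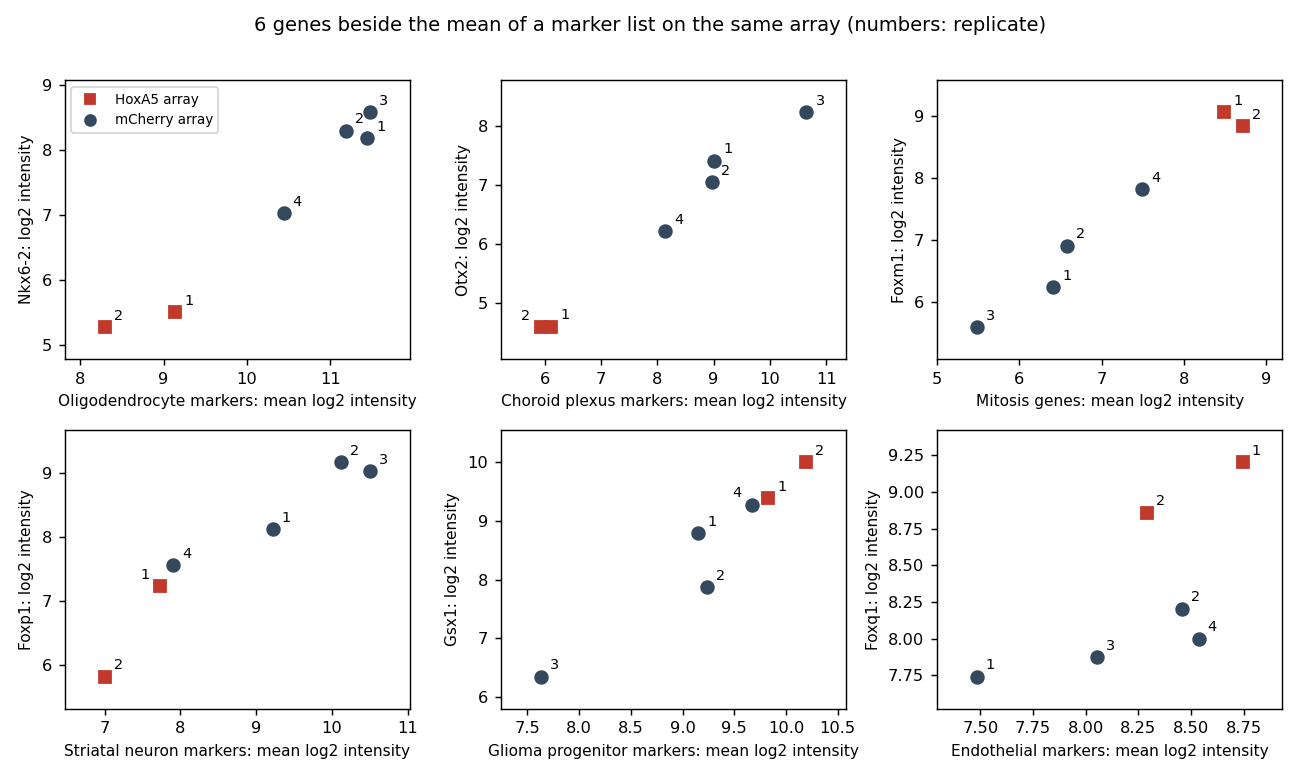
Log2 level of Nkx6-2, Otx2, Foxm1, Foxp1, Gsx1 and Foxq1 (vertical axes) against the mean log2 level of a marker list (horizontal axes) on each of the 6 arrays, HoxA5 and mCherry arrays in separate colours. The pairs were chosen after the values were seen. The mCherry 4 array lies nearest to the HoxA5 arrays in the choroid plexus and mitosis lists, at 8.14 and 7.49.

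A list of regional factors outside these symbol families was fitted beside them. Of 31 listed, 26 were on the array and 16 were tested. Of these, 2 were called, both lower, beside 5.85% of all genes called and 4.64% called lower. By the probe tested, Tbr1, Isl1, Sp9 and Shox2 passed the detection filter through mCherry arrays alone and Phox2a through HoxA5 arrays alone. Phox2a and Prrx1 lay higher in HoxA5 tumours without overlap and were not called. Tbr1, a factor of deep-layer cortical neurons, fell by 3.52 (adjusted p = 0.0167), at least 9.99-fold, and was detected on 4 mCherry arrays and 0 HoxA5 arrays. Fezf2, which specifies subcortical projection neurons, fell by 2.64 (adjusted p = 0.0150). The median of the 16 was -0.45, with 4 differences positive, against 0.072 over all genes tested.

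Dorsal midline and cerebellar factors showed no call among 5 tested. Zic1, a zinc finger factor of cerebellar granule cells, meninges and dorsal midline, was at 9.54 and 9.45 in HoxA5 tumours and 10.18, 10.07, 10.65 and 9.63 in mCherry tumours, without overlap (difference -0.63, SE 0.306, adjusted p = 0.234). Zic4, its neighbour in the genome, was at 7.07 and 5.79 against 6.71, 7.09, 7.60 and 6.67, with overlap (difference -0.59, adjusted p = 0.455), and its detected probes disagreed in direction. The tested probe of Zic2, a forebrain midline factor, was not detected on either HoxA5 array (4.44 and 4.38) and stood at 5.39, 5.37, 5.33 and 4.59 on mCherry arrays (difference -0.76, adjusted p = 0.157).

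The second Zic2 probe was detected on HoxA5 1 and mCherry 1. At 5.27 and 4.66 against 5.48, 4.61, 4.62 and 4.65, it had overlapping groups and a difference of opposite sign (0.12). The brightest probe was chosen anew under each setting, and without background correction the Zic2 difference was 0.040. Quantile normalization keeps the order of the tested probe's values, lower in both HoxA5 tumours, so 0.040 belongs to the second probe. Msx3, a dorsal neural tube factor, was at 6.19 and 6.01 against 5.66, 5.72, 5.76 and 5.54 (difference 0.44, adjusted p = 0.368). Msx1, a factor of dorsal midline and craniofacial tissue, was at 8.91 on HoxA5 1, above the mCherry range of 6.53 to 7.48, and at 6.70 on HoxA5 2, within it (difference 0.71, adjusted p = 0.474). Zic5 and Msx2 were detected on 0 arrays.

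Iroquois genes, which pattern the neural plate and heart, were detected in both groups for 4 of 5 tested genes, and 0 were called or had an unadjusted p under 0.05. Irx2 was at 6.68 and 5.81 against 7.81, 7.00, 5.86 and 7.37 (difference -0.77, adjusted p = 0.408). Irx3 was at 8.28 and 7.22 against 7.59, 8.23, 6.89 and 8.02 (difference 0.067, 95% confidence interval -0.99 to 1.12, adjusted p = 0.947). Irx5 was detected on HoxA5 1 at 6.96 and not on HoxA5 2 at 4.90, beside 4.98 to 5.51 on the mCherry arrays (difference 0.67, adjusted p = 0.441). Irx1, at 5.69 and 5.74, lay above the mCherry arrays (4.65 to 5.53, adjusted p = 0.433). Irx4 was detected on 0 arrays.

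Among 6 tested forkhead factors of meninges and vessel walls, 0 were called and 2 had an unadjusted p under 0.05. Of all genes, 5.85% were called and 24.6% had an unadjusted p under 0.05. The list's median was 0.52 (0.17 without background correction), against 0.072 over all genes tested, and was not tested. Foxq1, expressed in brain endothelium, was at 9.20 and 8.86 in HoxA5 tumours and from 7.74 to 8.21 in mCherry tumours, without overlap (difference 1.07, SE 0.308, adjusted p = 0.071). Median scaling in place of quantiles brought its adjusted p to 0.0486. Foxs1, a factor of pericytes, was at 8.67 and 7.43 against 5.94, 7.07, 5.18 and 7.56, where mCherry 4 lay above HoxA5 2 (difference 1.61, SE 0.658, adjusted p = 0.170).

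Foxf2, a factor of brain pericytes, was at 6.06 and 5.74 against 4.81, 5.43, 5.16 and 5.66, without overlap (difference 0.64, adjusted p = 0.253). Foxc1, which forms the meninges and mural cells, was at 6.44 and 6.52 against 6.38, 5.67, 6.14 and 6.09 (difference 0.41, adjusted p = 0.468). Foxd1 and Foxc2 had overlapping groups (differences 0.18 and -0.0098). Of 6 meningeal fibroblast markers 4 were called higher and 1 lower, beside 1.21% and 4.64% of all genes. Their list means were 8.79 to 10.15 against 7.27 to 8.29. None of 7 endothelial markers was called, with list means of 8.29 to 8.74 against 7.48 to 8.54. The part of these cells in the forkhead values was not tested.

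The remaining lists had few detected genes and no call. Of the diencephalon list, Lhx5 (difference -0.42, adjusted p = 0.428) and Pou3f4 (difference 0.090, adjusted p = 0.877) were tested. Of the midbrain and sensory list, Foxa1, a factor of dopaminergic progenitors, differed by 0.35 (adjusted p = 0.513) and Pou4f3, a factor of hair cells, by 0.090 (adjusted p = 0.885), each detected on 1 array of each group. Among the symbols placed in no other list, 7 of 34 were tested, with differences from 0.18 to 0.55 and adjusted p-values from 0.316 to 0.817.

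Among these was Foxp3, the factor of regulatory T cells, detected on all 6 arrays by 1 of its 4 probes, at 10.91 and 10.44 against 10.37, 10.71, 10.36 and 10.55 (difference 0.18, adjusted p = 0.683). Its other 3 probes were detected on at most 1 array each. Of the noncoding transcripts, Foxd2os was detected on HoxA5 1 (7.05) and mCherry 4 (5.24), with 5.03 on HoxA5 2 and 4.37 to 4.60 on the other mCherry arrays (difference 1.38, adjusted p = 0.134).

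Of the 26 tested genes with at least 2 probes, 13 had 1 detected probe and 13 had more. In 9 of the latter 13 all detected probes moved in the same direction, and Foxk2, Foxp4, Zic2 and Zic4 were the exceptions. Nkx6-2 and Foxm1 were among the 9, while Otx2 rests on a single probe.

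**Figure D4:**
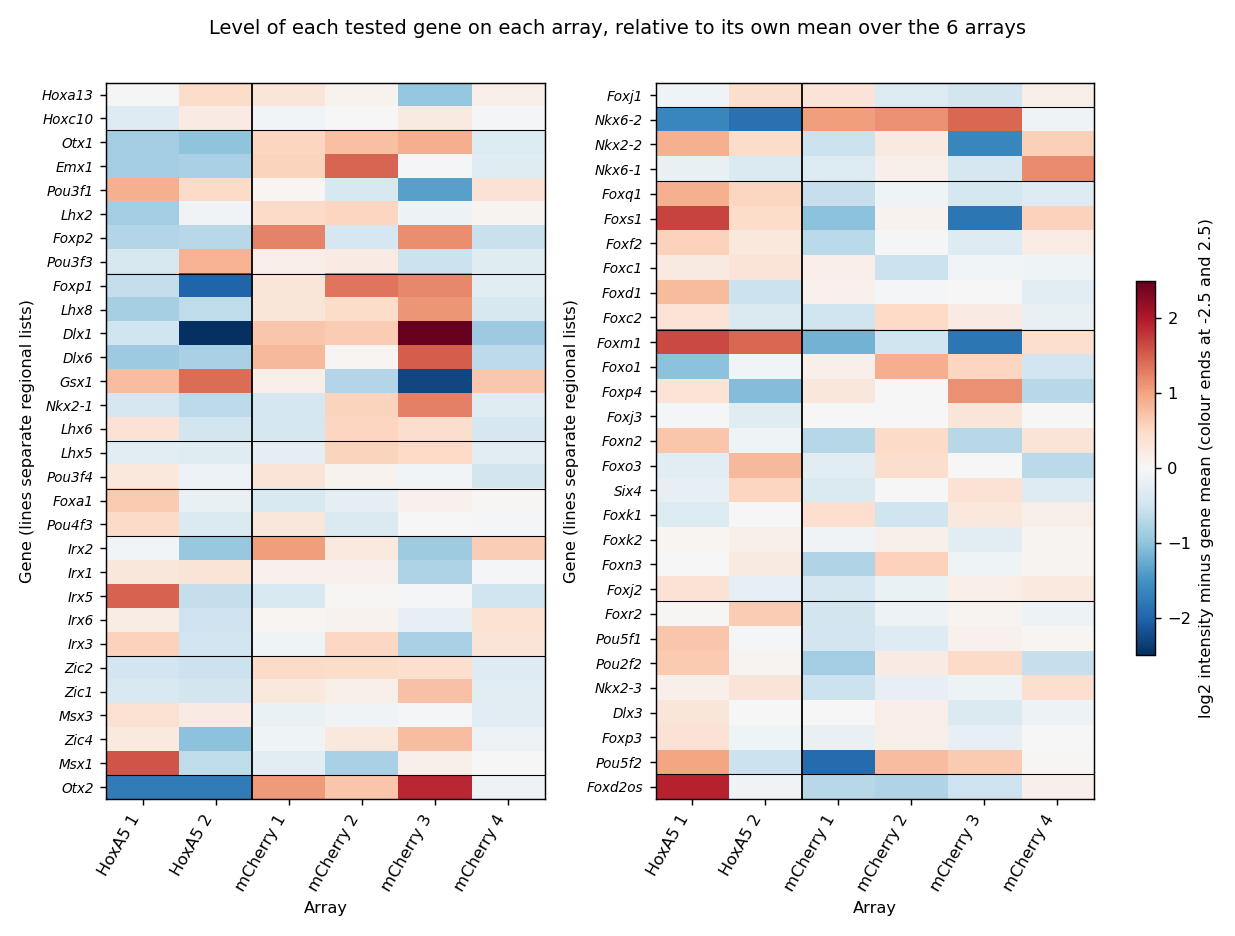
Log2 level of the tested homeobox, forkhead and Zic genes on each array, shown as the deviation from that gene's mean over the 6 arrays (colour scale in log2 units), with rows grouped by regional list. Otx2, Nkx6-2, Dlx1 and Foxp1 lie below, and Foxm1 above, their own mean on the 2 HoxA5 arrays.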

How the data were processed

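Total RNA from 2 HoxA5 and 4 mCherry tumours was hybridised to Illumina mouse bead arrays. The main table holds intensities of 45281 probes that the authors deposited without normalization, with a detection p-value deposited beside each, per the file headers. A second deposited table holds the authors' log2 values, used as an alternative. For it limma is named, per the submitters' processing notes, and the version, the background step and a genome build are not given in the sources used here.

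The function neqc of limma 3.58.1 (R 4.3.3) corrected the background, using detection p-values to place the negative controls, added an offset of 16, applied quantile normalization and took log2. This offset shrinks differences of dim probes. Probes were named from the platform annotation where it gives a single symbol (34885 probes). A probe detected (p under 0.05) on at least 2 arrays entered, and the brightest stood for its gene. Groups were compared with lmFit and eBayes (intensity trend) over all 12242 genes, with Benjamini-Hochberg adjustment over all of them. The fit was tested on simulated data.

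Where no array of a group detected a gene, the fold is a bound: the mean of the other group against a floor, taken per array as the lowest signal detected there or the gene's level if that is higher, and then averaged. The bound takes the mean of the other group as exact, and shows no fall where the gene was not called. Few arrays limit the precision.

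The genes were chosen by symbol, without use of their values. They, the regional lists and the marker lists were set with earlier results of these data known. Regional lists follow textbook expression, except that symbols placed in no other list were pooled, under the label Other organs in the figures. Genes were named by a rule: Hoxa5 and every Hox gene detected, every called gene, up to 4 tested genes of each list by smallest p, and the brightest of each list. Others named in the report to complete a list were added after their values were seen. The alternatives were other background, scaling, filter, probe, variance and weighting choices, a block for replicate number, 2 other thresholds, and each array left out.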

Additional observations from a re-analysis of the deposited data

Results flagged for a closer look

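Of 43 groups of 4 mCherry values examined with Dixon's test, 3 had 1 array apart from the others, and chance alone gives about 1 in 20. Foxj3 on mCherry 3 was at 10.55, beside 10.24 to 10.26 on the other mCherry arrays. Hoxa13 on mCherry 3 was at 5.16, beside 6.22 to 6.43. Zic2 on mCherry 4 was at 4.59, beside 5.33 to 5.39. Groups of 2, as the HoxA5 arrays are, were not tested.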

How the results depend on the processing

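Of 693 values of the named genes under alternative settings, 641 kept their direction and their side of the threshold, 16 lost the threshold, 18 gained it and 18 changed sign. All genes called numbered 716 and the factors called 3. Array weights gave 1746 and 8, an adjusted p under 0.01 gave 106 and 0 (limma, 15 factors at an unadjusted p under 0.05), and under 0.1 gave 1509 and 6. Leaving out 1 array gave 2 to 2408 genes and 0 to 14 factors. With the replicate number as a block, 905 genes and 4 factors were called (Emx1 in addition). HoxA5 and mCherry share numbers 1 and 2 in their titles, and deviations of same-numbered arrays from their group means correlated at -0.36 and -0.24. The deviations of HoxA5 1 and HoxA5 2 mirror each other, so these are not separate checks. They cannot decide whether same-numbered arrays are paired. The block turned Irx3 to -0.16 and Pou3f4 to -0.14. Zic2 was at 0.040 without background correction and at 0.041 in the authors' values. The probe that stands for a gene was chosen anew in each setting, so positive Zic2 values can be those of its second probe. With single arrays left out, differences ran from -0.027 to 0.51 for Foxj1, -0.054 to 0.41 for Foxp3, -1.27 to 0.16 for Foxp4, -0.34 to 0.17 for Hoxc10, -0.46 to 0.59 for Irx3, -0.36 to 1.68 for Irx5, -0.59 to 0.11 for Irx6, -0.11 to 0.29 for Pou3f4, -0.021 to 0.51 for Pou4f3, -0.97 to 0.050 for Zic2 and -1.22 to 0.057 for Zic4. With median scaling the median over all tested genes was 0.20 in place of 0.072. The causes were not tested. Signals near background limit most Hox genes and the 8 factors detected on mCherry arrays alone.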
